A study of Mus musculus with 35 samples.

Results

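Regulatory T cells (Tregs) of visceral adipose tissue (VAT) collected at Zeitgeber time 20 (ZT, hours after lights on) were compared with those collected at ZT8, over all genes expressed in the series. All libraries whose count column was labelled VAT at ZT20 or at ZT8 were taken: 2 libraries at ZT20 (replicate letters A and C) and 3 at ZT8 (B, C and D), 5 of the 35 libraries of the series. The label held against the data: summed over Foxp3, Il2ra, Cd4, Cd3e, Ikzf2 and Ctla4, Treg markers reached 5410 and 5760 CPM (counts per 1000000) at ZT20, against 5430, 5340 and 5430 CPM at ZT8. Foxp3, the lineage-defining transcription factor, was at 696 and 736 CPM at ZT20, against 730, 669 and 808 CPM at ZT8. Throughout, values at ZT20 are given for libraries A and C and those at ZT8 for libraries B, C and D, in that order.

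The ZT20 and the ZT8 group alike came from male wild-type C57BL/6 mice that were retired breeders over 35 weeks of age, housed with 12 h of light a day, so that ZT20 lies in the dark phase and ZT8 in the light phase. In both, CD4+ CD25+ cells were sorted 2 times by flow cytometry, with 1000 cells in a library. The labels do not say whether replicates came from separate animals or whether animals were pooled, so the spread between libraries may be technical. The CD25 gate does not itself select Foxp3-expressing cells. The other 12 VAT libraries (ZT0, ZT4, ZT12 and ZT16, 3 each) and the spleen Tregs at ZT20 and ZT8 (3 libraries each) serve only to place the contrast.

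Nearly all cells hold a circadian clock, in which the transcription factors BMAL1 (gene Arntl), CLOCK and NPAS2 drive the genes of their own repressors, the PER and CRY proteins and the nuclear receptors REV-ERBα and REV-ERBβ (Nr1d1 and Nr1d2). REV-ERB proteins and the ROR receptors compete at one DNA element, the ROR response element, and the factors DBP, TEF and HLF and their antagonist NFIL3 carry timing to further genes through the D-box. Mice are active and feed mostly in the dark phase. VAT Tregs are a resident population known for restraining inflammation of fat, and their number and state change with age and with metabolic state.

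Library make-up differed between the times, and both ZT20 libraries lay outside the range of every other VAT library in 4 measures. Total counts were 3702086 and 4455080 at ZT20, against 2988348, 3836487 and 3893566 at ZT8. Transcripts of the mitochondrial genome made up 1.89 and 1.47% of counts at ZT20, against 0.939, 0.98 and 1.02% at ZT8, and 0.884 to 1.27% in the other 12 VAT libraries. Thus A was the highest and C the next highest of the 17 VAT libraries, with no overlap.

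Ribosomal protein transcripts took 2.3 and 2.13% at ZT20, against 1.47, 1.4 and 1.47% at ZT8 (1.25 to 1.76% in the other VAT libraries). The 50 most abundant genes took 26.9 and 27.2% at ZT20, against 21.3, 20.9 and 22.6% at ZT8 (20.8 to 23.8% in the others). The transcript-length slope, the change in a gene's log2 CPM relative to its VAT mean for each doubling of its longest annotated transcript, was -0.1001 and -0.1144 at ZT20, against 0.026, 0.0398 and 0.0075 at ZT8, and -0.0358 to 0.0672 in the others. A negative slope means that short transcripts held a larger share of the library, and both ZT20 libraries had it more than any other VAT library. With 2 against 3 libraries there are 10 ways to split them, so the exact two-sided permutation test of each of these measures stopped at its smallest possible p, 0.2.

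**Figure D1:**
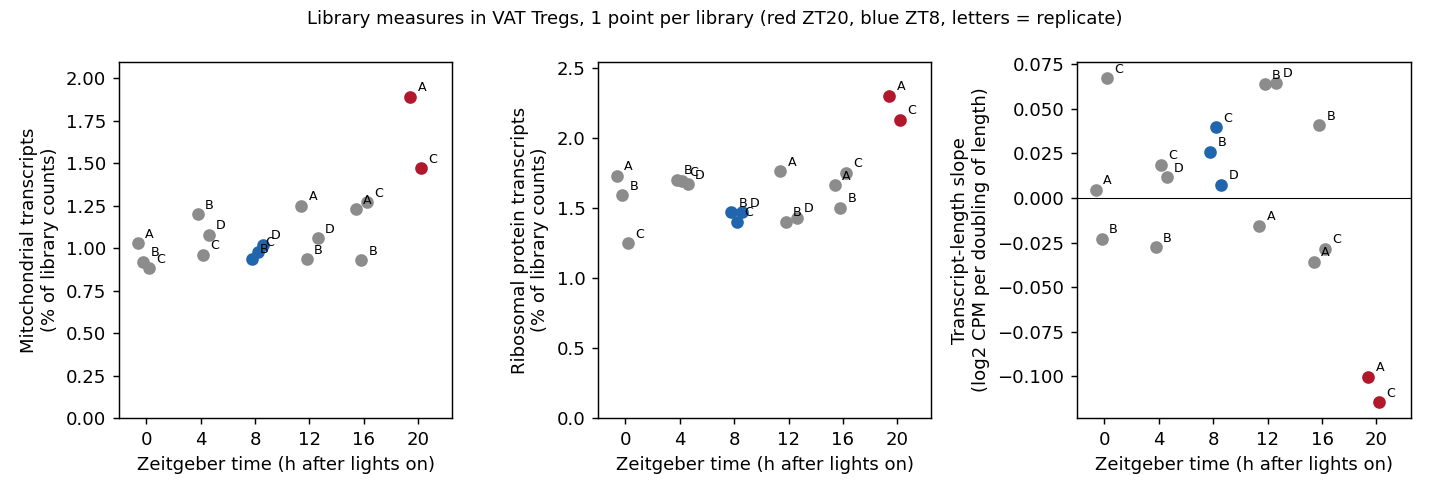
Mitochondrial share (percent of counts), ribosomal protein share (percent of counts) and transcript-length slope (log2 CPM per doubling of length) against Zeitgeber time in hours, 1 point per VAT library with its replicate letter. The ZT20 libraries (red) sit at 1.89 and 1.47% mitochondrial counts, 2.3 and 2.13% ribosomal protein counts and slopes of -0.1001 and -0.1144, beyond all other VAT libraries in each panel, while the ZT8 libraries (blue) lie within the range of the rest.

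Against this background, 2234 of 15910 genes differed between ZT20 and ZT8 at an adjusted p under 0.05 in edgeR's quasi-likelihood test with Benjamini-Hochberg adjustment, which is 14% of the genes tested. Of these, 1143 were higher at ZT20 (7.18% of the genes tested) and 1091 lower (6.86%). Changes of at least 2-fold were fewer among the higher genes, 221, than among the lower ones, 631. In 2213 of the 2234 genes the ZT20 and the ZT8 libraries did not overlap, against 42.2% of all genes tested. Genes called for a difference between these same libraries tend not to overlap. For a called gene, here and below, a lack of overlap is thus a description and no added support. The counts rested heavily on single libraries: 261 genes were higher and 233 lower without ZT20 A, 467 and 426 without ZT20 C, 655 and 768 without ZT8 B, and 705 and 796 without ZT8 C. Scaling by library totals in place of trimmed mean of M values (TMM) factors shifted the overall median of the log2 fold changes by -0.113 and gave 687 higher and 1519 lower genes, so that 31.1% of the calls were higher in place of 51.2%, and small changes are relative to the scaling.

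The direction of a gene's change went with the length of its transcript. Genes called higher had a median longest transcript of 1925 nt and genes called lower one of 4520 nt, beside 3065 nt for all genes. In 5 equal groups of genes by length, from short to long, the median log2 fold change was 0.419, 0.304, -0.009, -0.252 and -0.308. In the shortest group (up to 1583 nt) 13% of genes were higher and 0.767% lower. In the longest group (from 5017 nt) 1.41% were higher and 12.8% lower. Across genes, Spearman's rho between log2 fold change and length was -0.267 for this contrast (15627 genes with a length), -0.251 for ZT20 against ZT8 in spleen Tregs, 0.012 for ZT16 against ZT4 in VAT and -0.073 for ZT0 against ZT12 in VAT. These are descriptions across genes, which share libraries and are not independent.

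**Figure D2:**
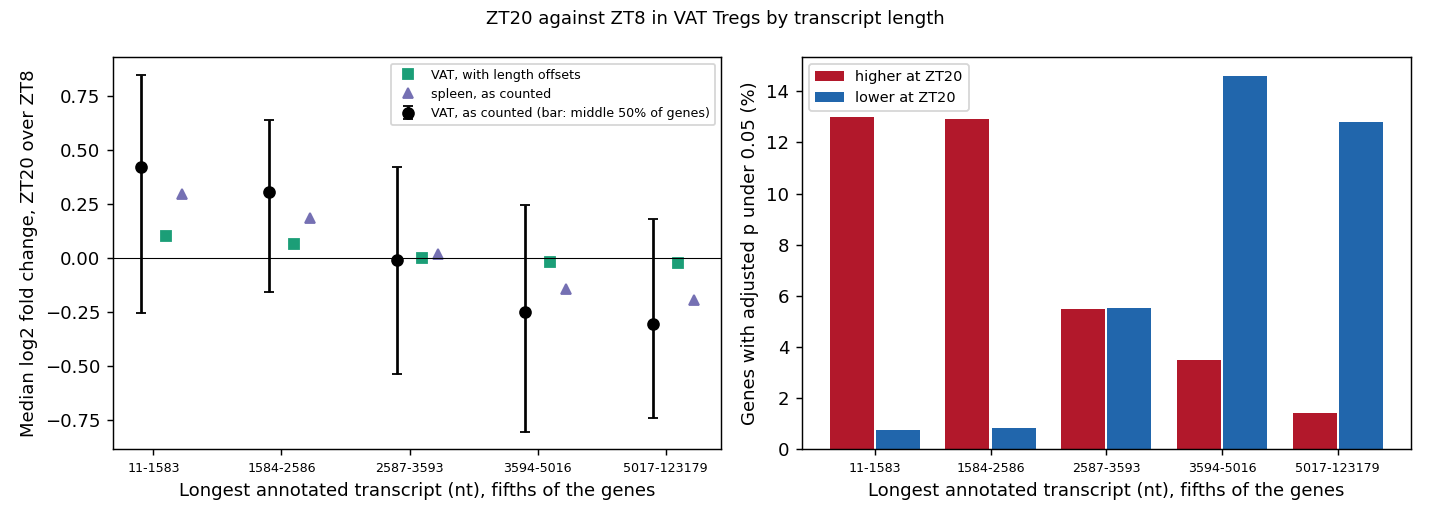
Left, median log2 fold change of ZT20 over ZT8 in 5 equal groups of genes by longest annotated transcript (nt), for VAT as counted (circles, bars spanning the middle 50% of genes), VAT with length offsets (squares) and spleen as counted (triangles). Right, percent of genes called higher (red) or lower (blue) at ZT20 in VAT; the calls of the 2 shortest groups are mostly higher (13% and 12.9%) and those of the 2 longest mostly lower (14.6% and 12.8%).

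When each library's length trend was removed with offsets from a smooth curve, 1294 genes were still called (8.13%), 681 higher (4.28%) and 613 lower (3.85%). Of these, 1102 had been called in the same direction as counted, and none of the 2234 genes changed sign. The medians of the length groups then ran only from 0.1 to -0.025. When instead the length slope of each library entered the model as a covariate, 0 genes were higher and 2 lower (1386 had an unadjusted p under 0.05), and with the mitochondrial share as covariate 0 were higher and 3 lower (1344 with an unadjusted p under 0.05). The 2 genes were Pdcl and Sh3bgrl, and Cdc42se2 joined them in the second fit, 3 names given here after their values were seen. In these fits the median absolute log2 fold change of the 2234 genes was 0.418 and 0.445, against 0.878 without the covariate, and their median standard error 0.272 and 0.274, against 0.231. With both ZT20 libraries at the far end of both measures, the contrast and the measures cannot be told apart in this model.

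Set against the 4 times that the contrast does not use, ZT20 gave more calls than ZT8. ZT20 differed from the mean of ZT0, ZT4, ZT12 and ZT16 in 1631 genes (10.3%), 861 higher and 770 lower. ZT8 differed from the same mean in 7 genes (0.044%), all higher, with 1440 at an unadjusted p under 0.05. ZT20 had the highest mean of the 6 times in 1124 of the 1143 genes called higher, and the lowest in 1081 of the 1091 called lower, while ZT8 was the opposite extreme in 851 and 756 of them. These counts only describe the calls, since genes chosen for a difference between ZT20 and ZT8 tend to have both times at the ends of the order. Over all 15910 genes tested, ZT20 was highest in 4710 and lowest in 4669, and ZT8 was highest in 2827 and lowest in 3374. The other opposed pairs of times gave few calls: ZT16 against ZT4 differed in 5 genes (0.0314%, with 935 at an unadjusted p under 0.05) and ZT0 against ZT12 in 8 (0.0503%, with 1078). Those 8 included the clock genes Arntl and Tef. These comparisons were added after the data had been seen.

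In the core clock, 1 of 8 repressor genes was lower at ZT20, none of 5 activator genes was called, and 1 of 6 output genes was lower. Over all genes tested 14% were called, so these counts say nothing particular about the clock. Nr1d2, which encodes REV-ERBβ (chromosome 14, 18204054 to 18239127, minus strand, in GRCm38), was at 18.1 and 24.4 CPM at ZT20, against 132, 148 and 103 CPM at ZT8. Every ZT20 value lay far under every ZT8 value. On the log2 scale the change was -2.58 ± 0.60 (adjusted p = 0.00505 in edgeR's quasi-likelihood test), and -2.30 (adjusted p = 0.00801) with length offsets. The call rested on both ZT20 libraries, since the change was -2.39 (adjusted p = 0.111) without ZT20 A and -2.83 (adjusted p = 0.0544) without ZT20 C. Over the 6 times, Nr1d2 averaged 50.2 ± 25.6 at ZT0, 51.8 ± 28.4 at ZT4, 128 ± 23.2 at ZT8, 97.2 ± 42.0 at ZT12, 62.7 ± 33.9 at ZT16 and 21.2 ± 4.45 at ZT20 (CPM, SD over 3 libraries, 2 at ZT20), so ZT8 held the highest and ZT20 the lowest mean of the cycle. That order is common among the calls: of the 1091 genes called lower, 1081 had their lowest mean at ZT20 and 756 their highest at ZT8.

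Tef, which encodes a D-box transcription factor (chromosome 15, 81802421 to 81826863, plus strand), was at 17.8 and 18.6 CPM at ZT20, against 56.6, 55.2 and 46.8 CPM at ZT8. The libraries within each time lay close together and the times did not overlap. The log2 fold change was -1.54 ± 0.29 (adjusted p = 0.000679, edgeR), -1.27 with length offsets, and its call held whichever library was left out. Its means over the cycle were 23.2 ± 3.19 at ZT0, 36.6 ± 9.93 at ZT4, 52.9 ± 5.30 at ZT8, 57.7 ± 12.7 at ZT12, 41.7 ± 3.03 at ZT16 and 18.2 ± 0.566 at ZT20 CPM, a course with its upper values at ZT8 and ZT12 and its lower ones at ZT20 and ZT0.

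Promoter windows are printed for both clock genes that were called, because their known regulators act through short elements that can be read in the sequence. In 250 bases upstream of the annotated RefSeq start (GRCm38.p6), Nr1d2 (chr14:18239107-18239356, minus strand) held 1 copy of the core of the ROR response element, AGGTCA, searched on both strands and set in capitals, and no E-box CACGTG, the element of CLOCK and BMAL1. Tef (chr15:81802423-81802672, plus strand) held 1 E-box CACGTG and 1 D-box TTANNTAA, both in capitals. Both sequences are written 5′ to 3′ on the gene's strand.
Nr1d2: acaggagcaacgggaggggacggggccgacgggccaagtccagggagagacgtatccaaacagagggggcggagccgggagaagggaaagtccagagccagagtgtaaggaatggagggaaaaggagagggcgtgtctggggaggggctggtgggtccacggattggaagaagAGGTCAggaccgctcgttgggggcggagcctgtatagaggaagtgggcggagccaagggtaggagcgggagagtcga
Tef: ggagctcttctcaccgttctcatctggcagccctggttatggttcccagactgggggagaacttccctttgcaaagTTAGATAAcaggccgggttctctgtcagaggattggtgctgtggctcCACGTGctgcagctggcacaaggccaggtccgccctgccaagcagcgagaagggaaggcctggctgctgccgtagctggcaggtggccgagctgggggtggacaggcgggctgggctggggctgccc
The E-box was in 7.15% of all 32851 RefSeq windows of 300 bases, the D-box in 6% and the ROR core in 16.3%. Among genes called lower, 12.5% of windows held an E-box, and among genes called higher 12.6%, beside 9.63% for the genes tested. Such a match describes the letters in the window and is not a binding site.

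The remaining clock genes did not pass the test. Arntl was at 99.5 and 110 CPM at ZT20, against 101, 122 and 97.1 CPM at ZT8, with overlapping groups and a log2 fold change of -0.03 ± 0.22. Its cycle had its highest mean elsewhere, with 160 ± 5.92 at ZT0, 108 ± 32.5 at ZT4, 107 ± 13.2 at ZT8, 78.0 ± 21.3 at ZT12, 99.7 ± 1.50 at ZT16 and 105 ± 7.05 at ZT20 CPM. Per3 had 20.4 and 14.1 CPM at ZT20, against 35.2, 41.0 and 31.0 CPM at ZT8 (-1.05 ± 0.42, adjusted p = 0.0883 in edgeR), without overlap. Npas2, a CLOCK relative, was near the detection limit at 3.88 and 4.71 CPM at ZT20, against 0.363, 0.849 and 1.46 CPM at ZT8 (2.20 ± 1.09, adjusted p = 0.181). The other repressor genes Nr1d1, Per1, Per2, Cry1, Cry2 and Ciart had log2 fold changes of -0.49, -0.16, -0.35, -0.19, -0.58 and -0.64. All 8 repressor genes thus had negative estimates and a median of -0.537, beside 0.01 for all genes. Their median length was 4320 nt, and genes of 3594 to 5016 nt had a median of -0.252. With length offsets the list's median was -0.474, and Per1 had 0.12. Per2 was near the detection limit, at 2.909 and 1.663 CPM at ZT20, against 3.265, 2.265 and 3.218 CPM at ZT8. Clock and Rora had -0.35 and 0.05, and the output genes Dbp, Hlf, Nfil3, Bhlhe40 and Bhlhe41 had -0.63, -0.21, 0.53, 0.75 and -2.41. Bhlhe41 was at 0 and 3.88 CPM at ZT20, against 26.1, 3.11 and 2.93 CPM at ZT8. Its groups overlapped, with only ZT8 B well above the rest, and its estimate had an SE of 1.42 (adjusted p = 0.276, edgeR).

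**Figure D3:**
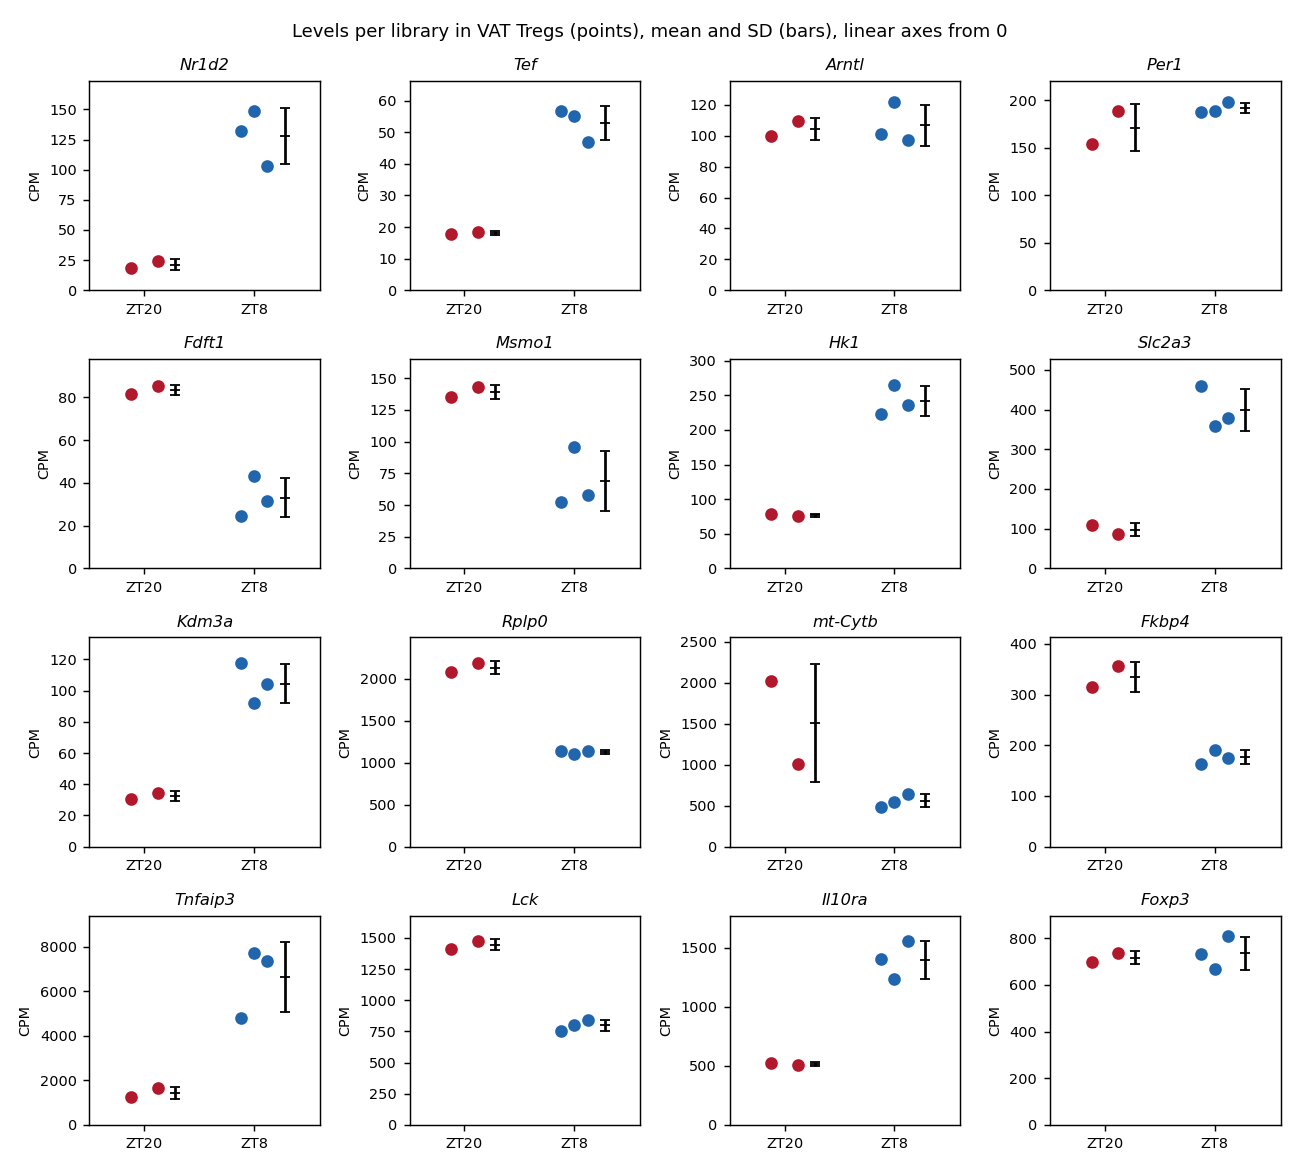
CPM of 16 genes in each VAT library, ZT20 (red) left and ZT8 (blue) right, with mean and SD as black bars and axes from 0. Nr1d2, Tef, Hk1, Slc2a3, Kdm3a, Tnfaip3 and Il10ra lie lower in both ZT20 libraries, Fdft1, Msmo1, Rplp0, mt-Cytb, Fkbp4 and Lck lie higher, and Arntl, Per1 and Foxp3 overlap between the times.

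The largest falls among protein-coding genes with a mean of at least 10 CPM, called and without overlap, were in genes with transcripts of 3362 to 6004 nt. Trim23, a ubiquitin ligase with a GTPase domain (chromosome 13, 104178797 to 104203372, plus strand), was at 8.73 and 3.33 CPM at ZT20, against 59.1, 60.3 and 42.1 CPM at ZT8, a log2 fold change of -3.18 ± 0.60 (adjusted p = 0.00107, edgeR). The others included Sec23a, of the COPII vesicle coat (21.3 and 13.3 CPM at ZT20, against 131, 94.8 and 104 CPM at ZT8; -2.67), Sacm1l, a phosphoinositide phosphatase (-2.59), the golgin gene Gcc1 (-2.49) and Cog3, of the conserved oligomeric Golgi complex (-2.46). The falls also took in Xpo1, the nuclear export receptor (19.7 and 35.2 CPM at ZT20, against 172, 155 and 161 CPM at ZT8; -2.56), the phosphoinositide phosphatase gene Mtmr6 (-2.56), the galectin-related gene Lgalsl (-2.75), Tmem168 (-2.58) and the zinc finger genes Zfp367 (-2.45) and Zfp790 (-2.45). In each, every ZT20 library lay under every ZT8 library, which the rule for naming them required. The calls of Trim23, Sec23a, Sacm1l, Gcc1 and Cog3 held whichever single library was left out, and calls were lost for Xpo1, Mtmr6, Lgalsl, Zfp367 and Zfp790 (without ZT20 A or ZT20 C) and Tmem168 (without ZT20 A, ZT20 C or ZT8 B).

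The largest rises were smaller and mostly in genes of low level. Tbx21, which encodes T-bet, the transcription factor of type 1 responses (chromosome 11, 97098071 to 97115331, minus strand), was at 13.2 and 47.1 CPM at ZT20, against 2.90, 7.08 and 4.09 CPM at ZT8. Library C alone set most of that rise of 2.66 ± 0.77, whose adjusted p was 0.0194 in edgeR's test. Trat1, an adaptor of the T cell receptor, had 37.5 and 42.4 CPM at ZT20, against 10.5, 16.4 and 8.48 CPM at ZT8 (1.75), and Ctss, the lysosomal protease cathepsin S, had 31.0 and 46.9 CPM at ZT20, against 13.4, 18.4 and 8.78 CPM at ZT8 (1.52). For both, the 2 ZT20 libraries stood above all ZT8 libraries, which the rule for naming the largest rises required. The others were the ciliary gene Cc2d2a (1.97), the zinc finger gene Zfp771 (1.88), Cd79b of the B cell receptor (1.75), the ubiquitin ligase subunit gene Asb2 (1.74), the RNA-binding gene Pcbp3 (1.58), the glycosyltransferase gene Glt8d1 (1.56), Rida (1.52) and Akip1 (1.49). The splicing factor gene Zrsr1 was at 19.4 and 93.2 CPM at ZT20, against 19.2, 13.6 and 13.5 CPM at ZT8 (1.88 ± 0.51). Only library C stood well above the ZT8 libraries there, and without it the change was 0.33 (adjusted p = 0.815, edgeR). Single left-out libraries ended the calls of Zfp771 and Pcbp3 (without ZT20 A), Ctss (without ZT20 C), Trat1 (without ZT20 A or ZT20 C), Cc2d2a (without ZT20 A or ZT8 B), Zrsr1 (without ZT20 C or ZT8 C), Akip1 (without ZT20 A, ZT20 C or ZT8 B), Glt8d1 (without ZT20 A, ZT20 C or ZT8 C), Rida (without ZT20 A, ZT8 C or ZT8 D), Tbx21 and Asb2 (without ZT20 C, ZT8 B or ZT8 D) and Cd79b (without ZT20 A, ZT20 C, ZT8 C or ZT8 D).

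Il10ra, which encodes the ligand-binding chain of the interleukin-10 receptor (chromosome 9, 45253837 to 45269149, minus strand), had the smallest p of all genes. It was at 526 and 506 CPM at ZT20, against 1405, 1238 and 1557 CPM at ZT8. The 2 ZT20 libraries nearly coincided, far under the ZT8 libraries, and the log2 fold change was -1.44 ± 0.19 (adjusted p = 3.51e-05, edgeR). It was -1.31 with length offsets, and -0.40 in spleen Tregs (adjusted p = 0.159). Over the cycle its means were 1165 ± 116 at ZT0, 1055 ± 164 at ZT4, 1400 ± 159 at ZT8, 1470 ± 319 at ZT12, 1114 ± 278 at ZT16 and 516 ± 13.6 at ZT20 CPM, so ZT20 stood apart from all 5 other times. The cytoskeletal gene Actb was at 44190 and 55090 CPM at ZT20, against 25230, 25800 and 28940 CPM at ZT8 (0.90 ± 0.14), and Mdh1, the cytosolic malate dehydrogenase gene, at 644 and 623 CPM at ZT20, against 274, 305 and 387 CPM at ZT8 (0.97 ± 0.15). Both rose without overlap. These 3 genes were chosen after their values were seen.

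Genes of protein synthesis and of mitochondrial respiration were higher at ZT20 as groups. Of 82 cytosolic ribosomal protein genes tested, 68 were higher and none lower, with a median log2 fold change of 0.759 beside 0.01 for all genes. Rplp0, of the ribosomal stalk, was at 2079 and 2188 CPM at ZT20, against 1138, 1103 and 1138 CPM at ZT8 (0.92 ± 0.15, adjusted p = 0.000246 in edgeR's test). Rps3, of the small subunit, was at 2348 and 2191 CPM at ZT20, against 1264, 1235 and 1301 CPM at ZT8 (0.84 ± 0.16). Both rose by clearly more than the spread within either time. Also named by smallest p, Rpl4 (0.74), Rpl7 (0.70), Rpl8 (0.70) and Rps7 (0.87), rose. Ribosomal protein genes are short, with a median of 1076 nt, and with length offsets 26 were higher and none lower, at a median of 0.425. With the length slope as covariate none was called, at a median of 0.2, and with the mitochondrial share none, at 0.277. The ribosomal protein share of a library sums such transcripts, so its difference restates this rise. Without a single library the count of higher genes was 12 without ZT20 A, 44 without ZT20 C, 51 without ZT8 B, 45 without ZT8 C and 56 without ZT8 D. Many of these genes have processed pseudogenes, among which reads can be split.

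All 8 tested protein-coding genes of the mitochondrial genome had positive estimates, and 6 rose. mt-Co1, a catalytic subunit of cytochrome c oxidase, was at 15810 and 12700 CPM at ZT20, against 7053, 7359 and 8332 CPM at ZT8 (0.91 ± 0.15, adjusted p = 0.00025, edgeR). mt-Cytb, cytochrome b of complex III, was at 2023 and 1005 CPM at ZT20, against 486, 546 and 644 CPM at ZT8 (1.44 ± 0.25). Both ZT20 libraries were above the ZT8 range in both genes, with A well above C for mt-Cytb. The complex I genes mt-Nd2 (1.13 ± 0.26), mt-Nd4 (0.98 ± 0.16), mt-Nd1 (0.72 ± 0.22) and mt-Nd5 (0.71 ± 0.17) rose as well. With length offsets 4 of the 8 were called, and mt-Nd1 and mt-Nd5 were not. Since the mitochondrial share of a library is the sum of these transcripts, its difference of 0.699 percentage points restates this rise and is not separate evidence for it. Without a single library the count was 3 without ZT20 A, 5 without ZT20 C, 5 without ZT8 B, 5 without ZT8 C and 5 without ZT8 D.

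The nuclear partners moved the same way: 42 of 77 genes of the respiratory chain were higher and none lower (median 0.75, median length 1129 nt), and 20 were higher with length offsets (median 0.466). With the length slope as covariate none was called, at a median of 0.26, and with the mitochondrial share none, at 0.32. Atp5g3, of the ring of ATP synthase, was at 199 and 232 CPM at ZT20, against 75.5, 85.5 and 102 CPM at ZT8 (1.30 ± 0.23). Ndufv2 of complex I was at 157 and 130 CPM at ZT20, against 65.3, 70.8 and 77.8 CPM at ZT8 (1.00 ± 0.16, adjusted p = 0.000195 in edgeR's test). In both, each ZT20 library exceeded each ZT8 library by more than the range within a time. Atp5b of ATP synthase (0.73 ± 0.13), Cox6b1 (1.25 ± 0.24) and Cox7a2 (1.32 ± 0.26) of cytochrome c oxidase and Uqcrc2 of complex III (0.76 ± 0.16) rose too. Of 77 mitochondrial ribosomal protein genes, 22 were higher and none lower (median 0.654; 10 with length offsets), with Mrpl16 at 43.3 and 39.4 CPM at ZT20, against 13.1, 16.4 and 19.3 CPM at ZT8 (1.34 ± 0.27) and Mrps12 at 35.9 and 33.0 CPM at ZT20, against 13.1, 15.0 and 18.4 CPM at ZT8 (1.15 ± 0.29). Left-out libraries changed these counts: the respiratory chain had 13 without ZT20 A, 29 without ZT20 C, 33 without ZT8 B, 36 without ZT8 C and 40 without ZT8 D, and the mitochondrial ribosome 3 without ZT20 A, 7 without ZT20 C, 8 without ZT8 B, 8 without ZT8 C and 15 without ZT8 D.

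Proteasome genes rose in 32 of 41 cases and none fell (median 0.659; 17 with length offsets, median 0.416). Psme1 and Psme2 encode the interferon-inducible activator PA28. Psme1 was at 227 and 273 CPM at ZT20, against 107, 117 and 133 CPM at ZT8 (1.07 ± 0.17, adjusted p = 0.000142, edgeR), and Psme2 at 110 and 100 CPM at ZT20, against 49.7, 46.4 and 63.8 CPM at ZT8 (0.98 ± 0.17). The immunoproteasome subunits Psmb8 (1001 and 889 CPM at ZT20, against 483, 532 and 537 CPM at ZT8; 0.87 ± 0.17) and Psmb10 (105 and 76.5 CPM at ZT20, against 41.7, 47.3 and 34.2 CPM at ZT8; 1.14 ± 0.19) rose, as did the core subunit gene Psma7 (0.88 ± 0.17) and the cap subunit gene Psmd11 (0.77 ± 0.15). The 2 times did not overlap for any of these 6. The CCT chaperonin, the ring complex that folds actin and tubulin, had 7 of 8 genes higher (median 0.509; 3 with length offsets), with Cct7 at 612 and 588 CPM at ZT20, against 340, 340 and 380 CPM at ZT8 (0.77 ± 0.14). Without a single library the proteasome count was 13 without ZT20 A, 21 without ZT20 C, 23 without ZT8 B, 28 without ZT8 C and 30 without ZT8 D, and the chaperonin count 2 without ZT20 A, 3 without ZT20 C, 4 without ZT8 B, 5 without ZT8 C and 6 without ZT8 D.

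**Figure D4:**
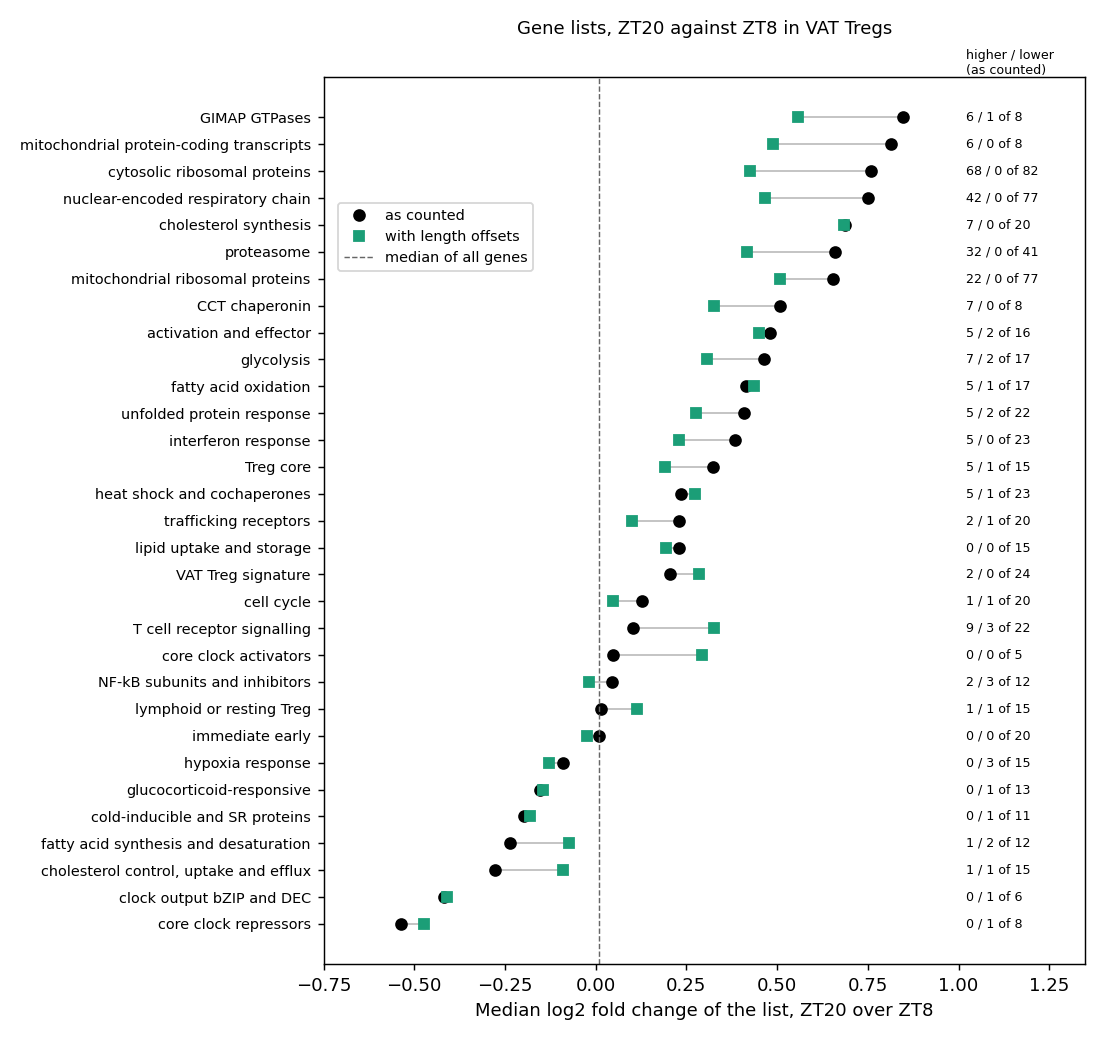
Median log2 fold change of ZT20 over ZT8 in VAT Tregs for 31 gene lists, as counted (black) and with length offsets (green), with the number of genes called higher and lower of those tested at the right; the dashed line is the median of all genes (0.01). Ribosomal, respiratory chain and proteasome lists move towards 0 with the offsets, and cholesterol synthesis does not (0.687 and 0.685). The median length of that list is 3055 nt, near the 3065 nt of all genes, where the offsets change little.

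For cholesterol synthesis the length offsets left the count and the median nearly as they were. The list's median length was 3055 nt, near the 3065 nt of all genes. Offsets change little at such lengths (median -0.009 as counted and 0 with offsets for genes of 2587 to 3593 nt). The unmoved median therefore does not test whether the rise depends on length. Of 20 genes, 7 were higher and none lower, with a median of 0.687 as counted and 7 higher and 0.685 with offsets. The called genes were not all the same, since Mvd lost its call with offsets (adjusted p = 0.0659, edgeR). Library totals and DESeq2 each gave 7 higher and 1 lower. With the length slope as covariate none was called, at a median of 0.885, and with the mitochondrial share none, at 0.883. Fdft1, squalene synthase and the first enzyme committed to sterols (chromosome 14, 63145150 to 63179578, minus strand), was at 81.8 and 85.1 CPM at ZT20, against 24.7, 43.0 and 31.6 CPM at ZT8 (1.33 ± 0.31, adjusted p = 0.00327 in edgeR's test). Msmo1, a sterol demethylation enzyme, was at 135 and 143 CPM at ZT20, against 52.2, 96.0 and 58.2 CPM at ZT8 (1.01 ± 0.26), and Ebp, the sterol isomerase, at 160 and 151 CPM at ZT20, against 67.5, 85.2 and 83.7 CPM at ZT8 (0.97 ± 0.20). Both ZT20 values lay above the 3 ZT8 values in each case. Mvk (1.42 ± 0.38), Mvd (1.09 ± 0.27) and Fdps (1.21 ± 0.32) of the mevalonate steps rose too. Hmgcs1, of the mevalonate steps as well, had a log2 fold change of -0.58 ± 0.42 and was not called (adjusted p = 0.398, edgeR). It was picked after its values were seen. In spleen Tregs the list's median was -0.384, with 0 genes higher and 3 lower. The calls of Fdft1 and Ebp held whichever single library was left out, and calls were lost for Mvd (without ZT20 C), Fdps (without ZT20 C or ZT8 C), Msmo1 (without ZT20 A, ZT20 C or ZT8 B) and Mvk (without ZT20 A, ZT20 C or ZT8 D). The list's count was 4 without ZT20 A, 2 without ZT20 C, 5 without ZT8 B, 6 without ZT8 C and 6 without ZT8 D.

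Fdft1 averaged 59.0 ± 3.32 at ZT0, 35.5 ± 7.68 at ZT4, 33.1 ± 9.28 at ZT8, 51.2 ± 11.2 at ZT12, 62.4 ± 3.75 at ZT16 and 83.4 ± 2.37 at ZT20 CPM over the cycle, and Msmo1 101 ± 16.3 at ZT0, 72.7 ± 8.21 at ZT4, 68.8 ± 23.7 at ZT8, 93.0 ± 27.4 at ZT12, 109 ± 18.4 at ZT16 and 139 ± 5.60 at ZT20 CPM, so both had their highest mean at ZT20 and their lowest at ZT8. Such an order is common among the calls: of the 1143 genes called higher, 1124 had their highest mean at ZT20 and 851 their lowest at ZT8. Among 15 genes of cholesterol control, uptake and efflux, Srebf1, which encodes the lipid-synthesis regulator SREBP-1, was lower at 91.1 and 101 CPM at ZT20, against 200, 165 and 159 CPM at ZT8 (-0.86 ± 0.22), and Npc2, a lysosomal cholesterol carrier, was higher (0.44 ± 0.14). With 1 gene higher and 1 lower, the list's share of calls was near the 14% of all genes tested. Fatty acid synthesis had 1 gene higher and 2 lower of 12 (0 and 1 with length offsets), beside 7.18% higher and 6.86% lower of all genes tested. Acss1, mitochondrial acetyl-CoA synthetase, was at 37.8 and 10.8 CPM at ZT20, against 86.7, 73.0 and 80.7 CPM at ZT8 (-1.74 ± 0.31), and Acly, ATP-citrate lyase, at 106 and 196 CPM at ZT20, against 343, 430 and 349 CPM at ZT8 (-1.31 ± 0.41). Both lay lower in both ZT20 libraries, A and C differing from each other in opposite ways. Elovl1, a fatty acid elongase, rose (0.65 ± 0.18). The call of Acss1 held whichever single library was left out, and calls were lost for Srebf1 (without ZT20 A), Elovl1 (without ZT20 A, ZT20 C or ZT8 B), Acly (without ZT20 A, ZT20 C, ZT8 B or ZT8 C) and Npc2 (without ZT20 A, ZT20 C, ZT8 B, ZT8 C or ZT8 D).

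In fatty acid oxidation 5 of 17 genes were higher and 1 lower (4 and 2 with length offsets), beside 7.18% and 6.86% of all genes tested. The gene that fell was Cpt1a, the carnitine palmitoyltransferase that admits fatty acids to mitochondria, at 76.0 and 90.7 CPM at ZT20, against 285, 293 and 263 CPM at ZT8 (-1.75 ± 0.40, adjusted p = 0.00465, edgeR). The genes that rose act inside the mitochondrion: Eci1 (87.3 and 90.9 CPM at ZT20, against 34.8, 46.7 and 37.7 CPM at ZT8; 1.16 ± 0.25), Acadl (0.72 ± 0.18), Echs1 (0.75 ± 0.23), the electron carrier gene Etfb (0.86 ± 0.30) and the carrier gene Ucp2 (1372 and 1581 CPM at ZT20, against 848, 854 and 904 CPM at ZT8; 0.77 ± 0.17). Cpt1a has a transcript of 4317 nt and Eci1 one of 1137 nt. The call of Eci1 held whichever single library was left out, and calls were lost for Ucp2 (without ZT20 C), Cpt1a (without ZT20 A or ZT20 C), Acadl (without ZT20 A, ZT20 C or ZT8 C) and Echs1 and Etfb (without ZT20 A, ZT20 C, ZT8 B or ZT8 C). None of 15 genes of lipid uptake and storage was called; the 2 at the highest level were Dgat1 (-0.71 ± 0.26) and Plin2 (0.13 ± 0.29).

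Glycolysis genes moved in both directions, with 7 of 17 higher and 2 lower (4 and 2 with length offsets), beside 7.18% and 6.86% of all genes tested. The lower ones act at the entry of glucose: Slc2a3, the glucose transporter GLUT3 (chromosome 6, 122727809 to 122801640, minus strand), was at 109 and 85.7 CPM at ZT20, against 460, 358 and 380 CPM at ZT8 (-2.04 ± 0.36), and Hk1, hexokinase 1 (chromosome 10, 62268855 to 62379908, minus strand), at 77.9 and 75.4 CPM at ZT20, against 224, 265 and 235 CPM at ZT8 (-1.65 ± 0.28, adjusted p = 0.00039 in edgeR's test). Each was lower by far more than its spread, and both remained called with length offsets (-1.74 and -1.40). The higher genes named by the rule were the enzyme genes Eno1 at 323 and 353 CPM at ZT20, against 171, 189 and 200 CPM at ZT8 (0.86 ± 0.14) and Ldha at 1297 and 1414 CPM at ZT20, against 780, 845 and 911 CPM at ZT8 (0.68 ± 0.14), with Pkm (0.46 ± 0.11) and Aldoa (0.56 ± 0.15). The glucose transporter gene Slc2a1 (0.25 ± 0.28) and Hk2 (0.93 ± 1.47), given after their values were seen, were not called. The calls of Slc2a3, Hk1, Eno1 and Ldha held whichever single library was left out, and calls were lost for Pkm (without ZT20 C) and Aldoa (without ZT20 A, ZT20 C or ZT8 C).

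Of 15 hypoxia-response genes, 3 were lower and none higher, beside 6.86% lower and 7.18% higher of all genes tested. Kdm3a, a histone demethylase gene, was at 30.4 and 34.6 CPM at ZT20, against 118, 92.0 and 104 CPM at ZT8 (-1.68 ± 0.31), Pdk1, which restrains pyruvate oxidation, at 50.4 and 57.4 CPM at ZT20, against 150, 131 and 112 CPM at ZT8 (-1.28 ± 0.28), and Bnip3l, of mitophagy, at 122 and 131 CPM at ZT20, against 170, 179 and 188 CPM at ZT8 (-0.50 ± 0.14). The times did not overlap in any of them, and the 3 calls held with length offsets. The list's median was -0.091. The call of Kdm3a held whichever single library was left out, and calls were lost for Pdk1 (without ZT20 A) and Bnip3l (without ZT20 A or ZT20 C).

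Protein-folding genes moved in both directions. In the heat shock list 5 of 23 genes were higher and 1 lower (2 and 0 with length offsets), beside 7.18% and 6.86% of all genes tested. Fkbp4, a cochaperone of HSP90, was at 314 and 356 CPM at ZT20, against 163, 191 and 176 CPM at ZT8 (0.92 ± 0.18, adjusted p = 0.000904, edgeR), and Hspe1, the mitochondrial cochaperone HSP10, at 40.7 and 40.8 CPM at ZT20, against 23.6, 13.9 and 25.2 CPM at ZT8 (0.97 ± 0.24). Hsph1, of the HSP110 family, fell to 55.9 and 47.1 CPM at ZT20, against 101, 130 and 135 CPM at ZT8 (-1.25 ± 0.40). The ZT20 pair lay outside the ZT8 range for all 3. Hsp90ab1 (0.52 ± 0.14), Ahsa1 (0.68 ± 0.21) and Cacybp (0.75 ± 0.23) rose. The call of Fkbp4 held whichever single library was left out, and calls were lost for Hsp90ab1 (without ZT20 A, ZT20 C or ZT8 B), Hspe1 (without ZT20 A, ZT20 C or ZT8 C), Ahsa1 and Cacybp (without ZT20 A, ZT20 C, ZT8 B or ZT8 C) and Hsph1 (without ZT20 A, ZT20 C, ZT8 C or ZT8 D).

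The element of heat shock factors can be read in the promoters of Fkbp4 and Hspe1, printed because both rose and both carry a pair of inverted units, GAANNTTC. They were chosen for these features, and the windows of 300 bases of Hsph1, which fell, held the motif as well. It is set in capitals in the 250 bases upstream of the RefSeq start (GRCm38.p6, gene's strand, 5′ to 3′), for Fkbp4 at chr6:128438657-128438906, minus strand and for Hspe1 at chr1:55087898-55088147, plus strand.
Fkbp4: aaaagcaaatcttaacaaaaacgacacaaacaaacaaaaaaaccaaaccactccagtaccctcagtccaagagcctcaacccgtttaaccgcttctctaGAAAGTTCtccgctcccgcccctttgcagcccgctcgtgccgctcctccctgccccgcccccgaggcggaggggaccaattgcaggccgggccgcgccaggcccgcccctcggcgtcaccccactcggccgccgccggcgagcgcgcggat
Hspe1: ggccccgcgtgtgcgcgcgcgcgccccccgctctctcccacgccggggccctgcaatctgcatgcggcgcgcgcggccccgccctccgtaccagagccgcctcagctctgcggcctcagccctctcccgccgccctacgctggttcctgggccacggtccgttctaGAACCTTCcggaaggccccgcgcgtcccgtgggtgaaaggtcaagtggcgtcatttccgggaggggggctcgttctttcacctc
Of 19 heat shock genes with a window, 10 held this motif on either strand, beside 7.31% of the genes tested. Genes called higher at ZT20 held it in 6.41% of cases and genes called lower in 6.69%.

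In the unfolded protein response list 5 of 22 genes were higher and 2 lower (5 and 3 with length offsets). The shares over all genes tested were 7.18% and 6.86%. The protein disulphide isomerase genes Pdia6 (342 and 371 CPM at ZT20, against 197, 167 and 182 CPM at ZT8; 0.97 ± 0.15) and Pdia3 (1751 and 1893 CPM at ZT20, against 1120, 1027 and 1117 CPM at ZT8; 0.74 ± 0.13) rose, with Sdf2l1 (1.48 ± 0.31) and the secreted factor gene Manf (0.80 ± 0.23). The chaperone gene Canx, calnexin, was lower at 198 and 197 CPM at ZT20, against 393, 385 and 340 CPM at ZT8 (-0.92 ± 0.24), and so was Sel1l, of the degradation machinery (-1.01 ± 0.27). Canx and Sel1l have transcripts of 4281 and 6300 nt and Pdia6 and Pdia3 of 2175 and 2770 nt. The calls of Pdia6 and Pdia3 held whichever single library was left out, and calls were lost for Sdf2l1 (without ZT20 C), Canx (without ZT20 A or ZT20 C) and Manf and Sel1l (without ZT20 A, ZT20 C or ZT8 B).

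Among genes of T cell receptor signalling, 9 of 22 were higher and 3 lower, and 9 and 1 with length offsets. The shares over all genes tested were 7.18% and 6.86%. Those named below by smallest p belong mostly to the receptor complex and its first kinases and adaptors. Lck, the kinase that starts the signal, was at 1415 and 1477 CPM at ZT20, against 750, 802 and 844 CPM at ZT8 (0.86 ± 0.14, adjusted p = 0.00025 in edgeR's test), Cd3g, of the receptor complex, at 733 and 705 CPM at ZT20, against 400, 392 and 448 CPM at ZT8 (0.80 ± 0.16), and the adaptor gene Lat at 490 and 498 CPM at ZT20, against 295, 311 and 305 CPM at ZT8 (0.70 ± 0.13). The ZT20 libraries lay above the ZT8 libraries in each, with narrow spread. Cd3d (0.83 ± 0.17) and the kinase gene Zap70 (0.64 ± 0.14) rose. Trac, the constant segment of the receptor α chain, named after its values were seen, was at 1358 and 1307 CPM at ZT20, against 526, 665 and 714 CPM at ZT8 (1.07 ± 0.16). The calls of Lck, Cd3g, Lat, Cd3d and Trac held whichever single library was left out, and the call was lost for Zap70 (without ZT20 C). The list's counts of higher and lower genes were 5 and 0 without ZT20 A, 6 and 2 without ZT20 C, 7 and 2 without ZT8 B, 7 and 3 without ZT8 C and 9 and 3 without ZT8 D.

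The GIMAP genes, small GTPases of lymphocyte survival that lie together on chromosome 6, had 6 of 8 members higher and 1 lower (median 0.847; 5 and 0 with length offsets). Gimap5 was at 435 and 399 CPM at ZT20, against 226, 221 and 231 CPM at ZT8 (0.88 ± 0.15), Gimap7 at 752 and 596 CPM at ZT20, against 306, 229 and 332 CPM at ZT8 (1.22 ± 0.25) and Gimap9 at 238 and 219 CPM at ZT20, against 114, 123 and 114 CPM at ZT8 (0.96 ± 0.18). All 3 were higher in both ZT20 libraries, A above C each time. Gimap1 (0.85 ± 0.16), Gimap4 (0.78 ± 0.21) and Gimap6 (0.85 ± 0.19) rose, and Gimap8, named here after its value was seen, fell (-0.71 ± 0.22). Members of this family resemble each other, so reads may be split among them. The calls of Gimap5, Gimap9 and Gimap1 held whichever single library was left out, and calls were lost for Gimap7 and Gimap6 (without ZT20 A) and Gimap4 (without ZT20 A, ZT20 C, ZT8 B or ZT8 C).

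The NF-kB list had 2 of 12 genes higher and 3 lower (1 and 1 with length offsets), beside 7.18% and 6.86% of all genes tested. Tnfaip3, which encodes the inhibitor A20 (chromosome 10, 19000910 to 19015657, minus strand), was at 1246 and 1638 CPM at ZT20, against 4822, 7706 and 7344 CPM at ZT8 (-2.20 ± 0.57, adjusted p = 0.0117 in edgeR's test). Both ZT20 values lay well under the lowest ZT8 value. Without ZT20 A the change was -2.02 (adjusted p = 0.162), and without ZT20 C -2.42 (adjusted p = 0.0784). Nfkbia, which encodes the inhibitor IκBα, moved the other way at 11710 and 11990 CPM at ZT20, against 6929, 6730 and 7547 CPM at ZT8 (0.75 ± 0.16), as did Nfkbib (0.83 ± 0.19), while Nfkbiz (-0.67 ± 0.16) and the subunit gene Rel (-0.79 ± 0.26) fell. Tnfaip3 and Rel have transcripts of 6199 and 7466 nt and Nfkbia one of 1578 nt, and with length offsets Tnfaip3 was at -1.90 (adjusted p = 0.0192) and Nfkbia at 0.41 (0.046). Nfkbib, Nfkbiz and Rel lost their calls with the offsets. The call of Nfkbia held whichever single library was left out, and calls were lost for Nfkbib and Nfkbiz (without ZT20 A) and Rel (without ZT20 A, ZT20 C, ZT8 B or ZT8 C).

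Treg identity genes showed mixed changes. In the core list 5 of 15 genes were higher and 1 lower (median 0.323; 3 and 1 with length offsets). The shares over all genes tested were 7.18% and 6.86%. Capg, an actin-capping protein gene, was at 1828 and 1989 CPM at ZT20, against 972, 1099 and 1103 CPM at ZT8 (0.85 ± 0.16), Tnfrsf4, the costimulatory receptor OX40, at 845 and 835 CPM at ZT20, against 465, 524 and 515 CPM at ZT8 (0.74 ± 0.20), and Ikzf4, the transcription factor EOS, at 84.7 and 83.7 CPM at ZT20, against 33.7, 54.9 and 24.3 CPM at ZT8 (1.16 ± 0.28). They were higher in both ZT20 libraries. Tnfrsf18, the receptor GITR (0.56 ± 0.14), and Izumo1r (0.85 ± 0.25) rose, and Nrp1, neuropilin 1, fell to 226 and 139 CPM at ZT20, against 296, 392 and 257 CPM at ZT8 (-0.79 ± 0.19). Foxp3 had -0.04 ± 0.13 with overlapping groups. The call of Capg held whichever single library was left out, and calls were lost for Ikzf4 (without ZT20 A), Nrp1 (without ZT20 C), Tnfrsf4 and Tnfrsf18 (without ZT20 A or ZT20 C) and Izumo1r (without ZT20 A, ZT20 C, ZT8 B or ZT8 C).

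Of 24 genes that mark VAT Tregs against lymphoid Tregs, 2 were higher and none lower (median 0.206), a share of higher genes near the 7.18% of all genes tested. The count depended on the fit, with 3 higher and 3 lower when the 17 VAT libraries were fitted alone and 6 and 6 with the 5 libraries alone. Batf, a transcription factor of tissue Tregs, was at 199 and 219 CPM at ZT20, against 112, 121 and 140 CPM at ZT8 (0.75 ± 0.20), and Tnfrsf9, the receptor 4-1BB, at 328 and 312 CPM at ZT20, against 112, 159 and 188 CPM at ZT8 (1.06 ± 0.34). The receptor gene Il1rl1 (-0.45 ± 0.25), Gata3 (0.23 ± 0.16) and Pparg (0.23 ± 0.44), named for their known role in these cells after their values were seen, were not called. Neither Batf nor Tnfrsf9 was called with length offsets. Single left-out libraries ended the calls of Batf (without ZT20 A or ZT20 C) and Tnfrsf9 (without ZT20 A, ZT20 C, ZT8 B or ZT8 C).

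In the activation list 5 of 16 genes were higher and 2 lower, and 5 and 0 with length offsets. The shares over all genes tested were 7.18% and 6.86%. Tnf was at 482 and 407 CPM at ZT20, against 221, 253 and 212 CPM at ZT8 (0.96 ± 0.19), Ebi3, a subunit of interleukin-35, at 76.0 and 83.7 CPM at ZT20, against 30.5, 41.9 and 31.9 CPM at ZT8 (1.20 ± 0.27), and the early activation marker Cd69 at 5075 and 5779 CPM at ZT20, against 3322, 2782 and 4109 CPM at ZT8 (0.67 ± 0.18). All ZT20 values exceeded all ZT8 values. Tnfrsf1b, the receptor TNFR2, was lower (-0.71 ± 0.21). None of 20 immediate early genes was called (2 higher and 1 lower with the 17 VAT libraries alone, 3 and 1 with the 5 libraries alone): Junb had 25000 and 23550 CPM at ZT20, against 18640, 17170 and 19170 CPM at ZT8 (0.41 ± 0.15, adjusted p = 0.0551) and Dusp1 10050 and 8711 CPM at ZT20, against 6790, 6136 and 7519 CPM at ZT8 (0.46 ± 0.18). The calls of Tnf and Ebi3 held whichever single library was left out, and calls were lost for Cd69 and Tnfrsf1b (without ZT20 A, ZT20 C or ZT8 C).

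Interferon-response genes rose in 5 of 23 cases and none fell: the tetherin gene Bst2 (75.3 and 67.1 CPM at ZT20, against 35.5, 30.9 and 34.2 CPM at ZT8; 1.09 ± 0.23), Isg20 (87.6 and 89.3 CPM at ZT20, against 38.5, 47.9 and 48.3 CPM at ZT8; 0.98 ± 0.22), Ifi47 (0.63 ± 0.16), and the immunoproteasome gene Psmb9 (0.87 ± 0.19). Psmb8, called as well, also counts, like Psmb9, among the proteasome genes. With length offsets 3 genes of the interferon list were higher and none lower. As counted, 7.18% of all genes tested were higher and 6.86% lower. Others of the list, such as Isg15 (-0.13 ± 0.65) and Irf7 (0.23 ± 0.27), named after their values were seen, were not called. Trafficking receptors had 2 of 20 higher and 1 lower, near the 7.18% and 6.86% of all genes tested, which says nothing particular about this list. Gpr183, an oxysterol-guided receptor, was at 94.7 and 90.1 CPM at ZT20, against 33.7, 52.4 and 63.5 CPM at ZT8 (0.88 ± 0.22). Selplg, the selectin ligand, was at 1621 and 1737 CPM at ZT20, against 1088, 1028 and 1215 CPM at ZT8 (0.60 ± 0.15). Itgb1, integrin β1, fell to 26.2 and 24.1 CPM at ZT20, against 39.2, 101 and 90.1 CPM at ZT8 (-1.61 ± 0.38). The call of Isg20 held whichever single library was left out, and calls were lost for Bst2, Ifi47 and Psmb9 (without ZT20 A), Selplg (without ZT20 C), Itgb1 (without ZT20 A or ZT20 C) and Gpr183 (without ZT20 A or ZT8 B).

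In the remaining lists 1 or 2 genes each were called, beside 14% of all genes tested, which says nothing particular about these lists. In the lymphoid or resting Treg list Foxp1 fell (-0.58 ± 0.15) and Ly6c1 rose (0.69 ± 0.24) among 15. In the cell cycle list Mcm4, of the replication helicase, fell (50.1 and 59.0 CPM at ZT20, against 110, 114 and 129 CPM at ZT8; -1.11 ± 0.21) and Tyms, thymidylate synthase, rose (0.85 ± 0.27) among 20. Of 13 glucocorticoid-responsive genes Txnip alone was called, lower at -0.71 ± 0.22, with Il7r at -0.38 ± 0.16. Of 11 cold-inducible and splicing genes Srsf3 alone was called, lower at 462 and 473 CPM at ZT20, against 699, 676 and 635 CPM at ZT8 (-0.52 ± 0.11), with Srsf5 at -0.43 ± 0.15. The call of Mcm4 held whichever single library was left out, and calls were lost for Srsf3 (without ZT20 A), Foxp1 (without ZT20 A or ZT8 D), Tyms and Txnip (without ZT20 A, ZT20 C, ZT8 B or ZT8 D) and Ly6c1 (without ZT20 A, ZT20 C, ZT8 B, ZT8 C or ZT8 D).

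The markers of 12 other cell types differed in level. The 7 B cell markers summed to 305 and 292 CPM at ZT20, against 118, 176 and 93.6 CPM at ZT8 (93.6 to 305 over all VAT libraries). Ighm, the immunoglobulin M heavy chain, made up most of it at 272 and 261 CPM at ZT20, against 103, 165 and 89.2 CPM at ZT8 (1.16 ± 0.24), and Cd79b was at 22.6 and 29.7 CPM at ZT20, against 13.4, 8.21 and 2.05 CPM at ZT8. Both were higher in both ZT20 libraries, whereas 2 of the 7, Ighd among them, were at 0 in all 5 libraries. Cd79a was at 3.23 and 0.277 CPM at ZT20, against 1.45, 2.55 and 2.34 CPM at ZT8, with overlap. Ms4a1 (4.85 and 0 CPM at ZT20) and Pax5 (2.59 and 0.277 CPM) came mostly from library A and were at 0 at ZT8. The list thus did not rise as a whole. The 6 plasma cell markers summed to 458 and 437 CPM at ZT20, against 365, 392 and 355 CPM at ZT8 (333 to 458 over all VAT libraries), nearly all of it Xbp1 (309 and 309 CPM at ZT20, against 225, 243 and 226 CPM at ZT8) and Prdm1 (149 and 127 CPM at ZT20, against 137, 146 and 128 CPM at ZT8), which T cells express too. Mzb1 was at 0, and no plasma cell marker was called. The 10 stromal or mesothelial markers summed to 164 and 197 CPM at ZT20, against 183, 213 and 223 CPM at ZT8, mostly Gsn and Lrrn4, with Msln at 0 and none called. Dendritic cell markers summed to 32 and 54.9 CPM at ZT20, against 18.1, 28.9 and 15.5 CPM at ZT8, and markers of NK cells or innate lymphoid cells to 37.5 and 64 CPM at ZT20, against 31.6, 48.1 and 29.8 CPM at ZT8. CD8 T cell markers summed to 32 and 27.7 CPM at ZT20, against 18.1, 18.7 and 1.76 CPM at ZT8, those of conventional CD4 T cells to 57.8 and 45.7 CPM at ZT20, against 68.9, 34.8 and 55.9 CPM at ZT8, and endothelial markers to 32.3 and 24.7 CPM at ZT20, against 22.9, 45 and 37.4 CPM at ZT8. The B cell, plasma cell, CD8 T cell and dendritic cell sums were thus higher in both ZT20 libraries than in all 3 ZT8 libraries, and the stromal, NK or innate lymphoid, conventional CD4 T cell and endothelial sums overlapped. Though their sums overlapped, 1 marker of the NK or innate lymphoid list and 1 endothelial marker were called. The CD8 T cell sum was nearly all Cd8b1, at 27.8 and 26.9 CPM at ZT20, against 18.1, 18.7 and 1.76 CPM at ZT8. Cd8a and Eomes were at 0 in all 5 libraries. The dendritic cell sum was mostly Xcr1, at 19.4 and 43.8 CPM at ZT20, against 10.5, 24.1 and 9.95 CPM at ZT8. Flt3, Itgax, Clec9a and Siglech stayed under 1 CPM. No marker of the CD8 T cell or the dendritic cell list was called. Macrophage markers summed to 13.6 and 11.9 CPM at ZT20, against 7.98, 17.3 and 8.48 CPM at ZT8, and adipocyte markers to 21 and 17.5 CPM at ZT20, against 4.72, 5.66 and 19 CPM at ZT8, with Lep, Cfd, Retn and Cidec at 0. Neutrophil markers stayed under 3 CPM in sum and erythroid markers under 5 CPM. The part of these markers in the results was not tested. In sorted bulk samples, fewer cells of a type and less RNA per cell cannot be told apart.

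The same contrast in spleen Tregs gave 250 genes higher (1.57%) and 317 lower (1.99%). Of the 2234 genes called in VAT, 2107 (94.3%) had the same sign in spleen, beside 67.8% of all genes tested, and 320 were called in both, which is 14.3% of the VAT calls and 56.4% of the 567 spleen calls. The median absolute log2 fold change of the VAT calls was 0.878 in VAT and 0.44 in spleen, but those genes were chosen by their VAT values. The spleen libraries also differed between the times in mitochondrial share (1.95 to 2.18% at ZT20, 1.53 to 1.59% at ZT8) and in length slope (-0.0627 to -0.0439 at ZT20, 0.0141 to 0.069 at ZT8). Nr1d2 changed by -2.16 in spleen (adjusted p = 0.0235, edgeR), Tef by -0.99 (0.0193), Cpt1a by -1.43 (0.0272) and Hk1 by -0.91 (0.0295), each in the direction seen in VAT.

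**Figure D5:**
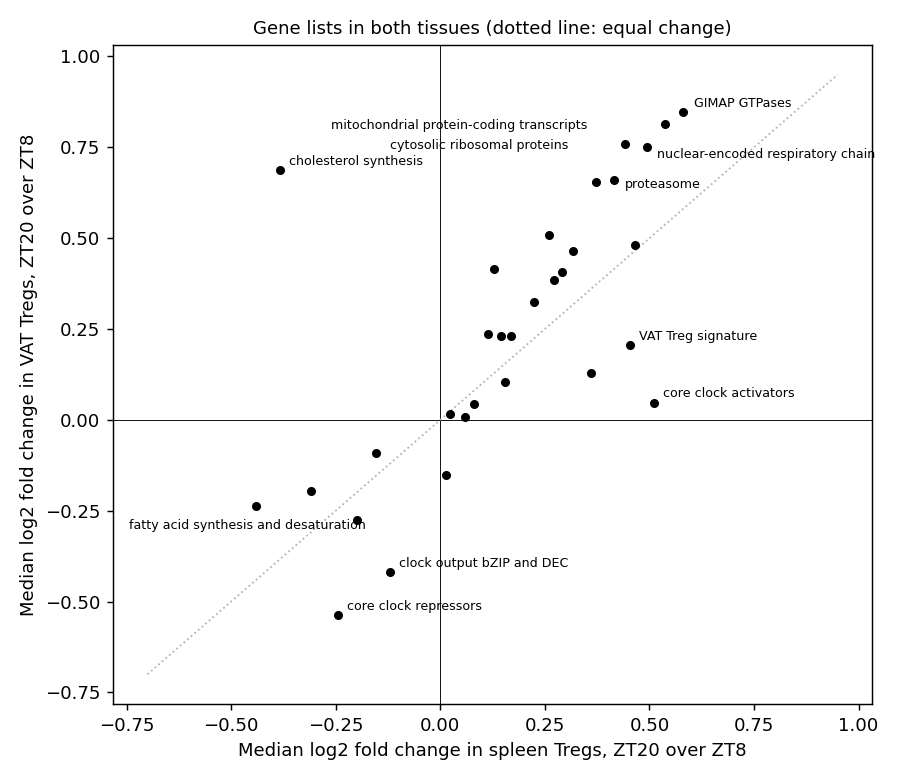
Median log2 fold change of ZT20 over ZT8 of each gene list in VAT Tregs (vertical axis) against spleen Tregs (horizontal axis), 1 point per list, with the dotted line at equal change. Most lists lie in the same quadrant and further from 0 in VAT, such as ribosomal proteins (0.759 in VAT, 0.441 in spleen), whereas cholesterol synthesis is positive in VAT (0.687) and negative in spleen (-0.384).

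The difference between the tissues was called for 1 gene of 15910 (0.00629%), with 1295 at an unadjusted p under 0.05. Sh3bgrl, which encodes a small SH3-binding, glutamate-rich protein (chromosome X, 109095365 to 109197873, plus strand), was at 152 and 172 CPM at ZT20, against 451, 354 and 354 CPM at ZT8. Its log2 fold change was -1.25 ± 0.17 in VAT and -0.02 in spleen, and the difference was -1.23 ± 0.22 (adjusted p = 0.0252, edgeR's quasi-likelihood test). That difference was no longer called without ZT20 A, ZT20 C or ZT8 B. Its means over the cycle in VAT were 332 ± 30.0 at ZT0, 335 ± 23.7 at ZT4, 387 ± 56.1 at ZT8, 381 ± 43.4 at ZT12, 362 ± 60.2 at ZT16 and 162 ± 13.9 at ZT20 CPM, with ZT20 alone under the rest. In the cholesterol list the smallest adjusted p of the difference between tissues was 0.279.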

How the data were processed

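Per the labels' protocols, polyadenylated RNA was primed with oligo-dT, amplified, made into Nextera XT libraries and sequenced in pairs of 25 nt. The authors deposited raw counts per gene symbol. Per the submitters' processing notes, the tools were STAR 2.7.3a with featureCounts and the build was mm10. No source used here gives the annotation or strand setting, so overlapping, antisense and near-identical genes are uncertain.

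Counts of all 35 libraries were fitted in R 4.3.3 with edgeR 4.0.16 (quasi-likelihood, robust, 12 groups, filterByExpr, TMM) and Benjamini-Hochberg adjustment over 15910 genes. Values with ± are means and SD over libraries for levels (n = 2 at ZT20, 3 at other times), and estimates and SE for log2 fold changes. CPM are counts per 1000000 after TMM scaling. Lengths and positions come from GENCODE M21 (GRCm38); 52936 of 55011 symbols matched. Length offsets were lowess curves (span 0.4) of each library's log2 CPM, relative to the tissue mean, on length. Promoter windows came from RefSeq (138 of 171 named genes matched). Alternatives included DESeq2 1.42.0. The script was tested on simulated data.

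The members, 32 pathway and 13 marker lists were chosen with earlier results of these data known. Named genes were the 12 largest called rises and falls (protein-coding, mean of at least 10 CPM, no overlap), all clock genes, and from each other list up to 6 called genes by smallest p or, with at most 1 called, that gene and the 2 at the highest level. A few genes chosen by this rule are not reported here. No 2 libraries of a group agreed within sampling noise (chi-square per gene 6.67 to 9). Without molecular identifiers, amplified copies count as separate reads.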

Additional observations from a re-analysis of the deposited data

Results flagged for a closer look

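Sh3bgrl was marked because its change from ZT8 to ZT20 differed between tissues by a test of the difference itself. The log2 fold change of ZT20 over ZT8 was -1.25 ± 0.17 in VAT Tregs and -0.02 in spleen Tregs, and the change in VAT minus the change in spleen was -1.233 ± 0.216 (SE; adjusted p = 0.0252, edgeR's quasi-likelihood test with Benjamini-Hochberg adjustment). It was lower in 2 of 2 ZT20 libraries than in all 3 ZT8 libraries of VAT. The change within VAT held with the length slope or the mitochondrial share as covariate.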

How the results depend on the processing

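Genes higher at ZT20 numbered 1143 and genes lower 1091. Library totals gave 687 higher, and testing every gene without a filter on low counts gave 696 higher. With length offsets 681 were higher and 613 lower, and with offsets on the median transcript length, added after the data had been seen, 836 and 950. With the length slope as covariate 0 were higher and 2 lower, and with the mitochondrial share 0 and 3. DESeq2 called 1331 and 1490. Leaving out single libraries gave 261 to 919 higher and 233 to 1053 lower genes, the lowest without ZT20 A. Size factors, the stricter filter, fits to 17 or 5 libraries and the removal of mitochondrial transcripts kept both counts within 1.5 times. The cause of these shifts was not tested.

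The replicate letter as a block gave 954 higher and 938 lower genes. The 2 times share only letter C. VAT libraries with the same letter at different times did not deviate together (median r = -0.006 over 29 pairs, and -0.018 for ZT20 C with ZT8 C). Whether VAT and spleen libraries of the same time and letter came from the same animal was not examined. The test of the difference between tissues does not use such a pairing. Genes whose change differed between tissues numbered 1, against 35 without the filter, 18 with DESeq2, 0 with the block, and 0 to 1 without single libraries. The difference in length slope was -0.1317, against -0.1158 on median transcript length and -0.1401 to -0.124 without single libraries. The difference in mitochondrial share was 0.6986 percentage points, and 0.4899 to 0.9072 without single libraries.

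Of 171 named genes, 147 were called, and 59 of these kept the call whichever library was left out. The call was lost for 75 without ZT20 A, 61 without ZT20 C, 27 without ZT8 B, 25 without ZT8 C and 12 without ZT8 D, for 39 with length offsets and for 146 with either covariate. With the length slope as covariate, the sign turned for Arntl (0.044), Clock (0.11), Cry1 (0.35), Dusp1 (-0.0089), Dgat1 (0.19), Plin2 (-0.43), Etfb (-0.056) and mt-Nd1 (-0.037). With length offsets, the sign turned for Arntl (0.19), Per1 (0.12), Hlf (0.099), Plin2 (-0.16) and Foxp3 (0.15). With offsets on the median transcript length, the sign turned for Arntl (0.18), Rora (-0.088), Per1 (0.14), Plin2 (-0.021) and Foxp3 (0.0097). With the mitochondrial share as covariate, the sign turned for 10 named genes, among them Clock (0.16), Rora (-0.18), Cry1 (0.37), Dusp1 (-0.061), Acly (0.033), Dgat1 (0.060), Plin2 (-0.28), mt-Nd5 (-0.019) and mt-Nd1 (-0.098). With library totals, the sign turned for Rora (-0.093) and Plin2 (-0.0064). With the replicate block, the sign turned for Foxp3 (0.013). Without single libraries the estimates ran over both signs, -0.12 to 0.065 for Arntl, -0.014 to 0.075 for Rora, -0.40 to 0.027 for Cry1, -0.020 to 0.91 for Nfil3 and -0.11 to 0.013 for Foxp3, none of them called. With 2 libraries at ZT20, the exact permutation test of a single value could not go below 0.2, and a call missed here does not show that a gene did not change.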

Other observations

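T cell receptor segments, which the gene lists do not hold, included some that differed between the times and some that 1 library carried. Of 56 variable genes tested, 8 were called higher and 1 lower at ZT20, and of 48 joining genes 4 were lower. Over all genes tested 7.18% were higher and 6.86% lower, so the share of joining genes called lower was near that of all genes. Trbv1, a β chain variable gene, was at 272 and 71.8 CPM at ZT20, against 4.35, 7.64 and 4.09 CPM at ZT8 (log2 fold change 4.97 ± 0.94, adjusted p = 0.00146 in edgeR's quasi-likelihood test). Trbv15 was at 56.6 and 47.1 CPM at ZT20, against 3.27, 0.849 and 1.75 CPM at ZT8 (4.76 ± 1.00). Both were above all ZT8 libraries in both ZT20 libraries. Large estimates also came between other times, none of them called. Trbv1 had -3.09 for ZT16 minus ZT4 and -2.24 for ZT0 minus ZT12, and Trbv15 had -0.74 and -2.81. Trav9-2 was at 0 and 27.7 CPM at ZT20, against 0, 0.849 and 0 CPM at ZT8, so 1 library carried it, as Trav16 was carried by ZT8 D alone (0 and 0 CPM at ZT20, against 0, 0 and 39.2 CPM at ZT8). Segments of this family resemble each other, so reads can be split among them. These genes were chosen after their values were seen.

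Unlike the genes called lower by ZT20, a few were set apart by ZT8: Sgsh, a lysosomal sulfatase gene, and Sidt1, a transmembrane transporter gene, were above the mean of ZT0, ZT4, ZT12 and ZT16 at ZT8 (log2 1.37 ± 0.22, adjusted p = 0.00675, and 0.97 ± 0.18, adjusted p = 0.0143, edgeR). Both were lower at ZT20 than at ZT8 (-1.80 and -1.53).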
